A study of Rattus norvegicus with 6 samples.

Results

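Hepatic expression of 10 genes of iron handling is described across the livers of individual rats. The genes are Hamp, Heph, Tfrc, Tfr2, Slc40a1, Fth1, Tf, Bmp6, Cp and Hfe. All non-control probes whose accession on the array belongs to one of these genes were taken, which gave 22 probes of 61657, for 10 genes of the 15284 that could be named. The genes were proposed with earlier results of these arrays known, and Heph was among them because it had given a small unadjusted p, so their differences between the groups are a description with no test.

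The isoflurane group held 3 rats killed after anaesthesia with isoflurane, an inhaled anaesthetic, and the CO2/O2 group held 3 rats killed after anaesthesia with that gas mixture. All were male Sprague-Dawley (Crl:CD(SD)) rats of 9 weeks, an outbred stock, and all received corn oil at 5 mL/kg/day. The labels conflict on how long the oil was given, 3 days in the design text and 9 weeks in the treatment protocol. Unanaesthetised rats were not part of the design, so the values do not say which agent a difference belongs to.

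Liver RNA of 1 rat was hybridised per array in 1 colour, so a value is the brightness of a probe. Values below are log2 signal relative to the 75th percentile of the array, written as log2 units, and differences are isoflurane minus CO2/O2. The 75th percentile lay between 912.5 and 998.3 intensity units, no spot was saturated, and 53.4% to 62.3% of probes were well above background. Signals of different probes are not set against each other as levels of their genes, because brightness also depends on the probe. Of the hepatocyte markers 10 of 10 were well above background on all 6 arrays. The 4 intestinal markers that were tested were so too, so this mark alone does not identify the tissue.

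Systemic iron is set by hepcidin, the peptide hormone encoded by Hamp and made mainly by hepatocytes. Hepcidin binds ferroportin, the only known iron exporter of animal cells, and causes its breakdown, so that high hepcidin keeps iron in macrophages and enterocytes. Hamp transcription is raised by BMP ligands from sinusoidal endothelial cells through SMAD proteins, by iron-loaded transferrin through HFE and transferrin receptor 2, and by interleukin-6 through STAT3.

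The proximal Hamp promoter is shown because both routes of control are known to act there in mouse and human. It is the RefSeq sequence of the 250 bases before the gene's start on the assembly GRCr8, chr1:95300272-95300521, minus strand. Capitals mark a GGCGCC core of the kind bound by SMAD proteins and a match to TTCNNNGAA, the general STAT core.
Hamp promoter: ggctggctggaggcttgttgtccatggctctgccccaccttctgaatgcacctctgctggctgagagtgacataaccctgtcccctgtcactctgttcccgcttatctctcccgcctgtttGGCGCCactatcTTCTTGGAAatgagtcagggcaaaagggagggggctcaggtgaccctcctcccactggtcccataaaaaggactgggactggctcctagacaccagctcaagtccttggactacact
The GGCGCC lay at bases 129 to 124 before the start, and the STAT core, matched as TTCTTGGAA, at bases 117 to 109. Both motifs read the same on both strands, and they did not overlap. GGCGCC was present in 8.7% of 33469 rat promoter windows of the same length, and TTCNNNGAA in 7.7%. Promoter entries were matched for 8 of the 10 genes; GGCGCC occurred in 2 of them, Hamp and Tfrc, and TTCNNNGAA in 1, Hamp. These matches describe the letters in the window, not binding.

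Of the 10 genes, Hamp differed most from rat to rat. Its single probe, A_42_P574859, read 4.23, 7.03 and 7.42 log2 units in isoflurane replicates 1 to 3, and 6.11, 7.43 and 7.67 in CO2/O2 replicates 1 to 3. The lowest value was that of isoflurane replicate 1, and CO2/O2 replicate 1 was next. The other 4 rats, from both groups, lay at 7.03 to 7.67 log2 units, so the groups overlapped. From the lowest to the highest rat the span was 3.44 log2 units, a 10.82-fold range. Without isoflurane replicate 1 it was 1.56 log2 units, a 2.96-fold range.

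The spread of Hamp within the groups, a pooled SD of 1.36 log2 units, was at the 99.3 percentile of all probes tested, whose median SD was 0.157. The group means were 6.23 ± 1.74 log2 units in isoflurane livers and 7.07 ± 0.84 in CO2/O2 livers (SD, n = 3 each), a difference of -0.84 (SE 0.89). That difference was smaller than its error. It rested on 1 rat: without isoflurane replicate 1 it was 0.15, with the sign turned.

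Heph was the member whose groups stood farthest apart. Heph encodes hephaestin, a copper-dependent ferroxidase known for helping ferroportin to move iron out of enterocytes. Its probe, A_44_P1051724, read -2.19, -2.62 and -2.51 log2 units in isoflurane livers, and -3.80, -3.76 and -3.40 in CO2/O2 livers. Every isoflurane value lay above every CO2/O2 value, with a gap of 0.78 log2 units between the nearest rats. The probe was well above background on all 6 arrays, but its signal was low, most of all in CO2/O2 livers. A Tfrc probe that read -4.14 to -2.96 log2 units had that mark on only 2 of 3 isoflurane arrays. The Steap2 probe, at -3.54 to -2.98, had it on all 6.

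The mean for Heph was -2.44 ± 0.23 log2 units in isoflurane livers and -3.65 ± 0.22 in CO2/O2 livers (SD, n = 3 each), a difference of 1.22 (SE 0.16), or 2.32-fold. Leaving out each array in turn gave differences of 1.09 to 1.34. With normexp in place of the scanner's background correction the difference was 0.81, so its size depended on how background was handled at this low signal. Only 1 probe measured Heph, so no other probe bears on it.

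Heph is known best from the small intestine, so markers of that tissue were read alongside it. Of 10 intestinal markers 8 matched a probe and 4 were tested. Vil1, Cdx2 and Slc5a1, which encode villin, an intestinal transcription factor and the intestinal glucose transporter, were not well above background on any array. Lgals4, an intestinal galectin, was well above background on 0 isoflurane and 2 CO2/O2 arrays at 2 of its 3 probes, too few for the test. Cdh17, the liver-intestine cadherin and so not particular to intestine, read 1.86, 3.87 and -0.85 log2 units in isoflurane livers. It read 0.91, -3.42 and -0.56 in CO2/O2 livers. Its groups overlapped, with a difference of 2.65 (SE 1.49), and 2.41 at its other probe, in the direction of Heph. Its highest value was in isoflurane replicate 2, the isoflurane rat with the lowest Heph, at -2.62 log2 units. Fabp2, the intestinal fatty acid binding protein, read 1.18, 0.55 and 1.08 log2 units in isoflurane livers, and 1.55, 1.17 and 1.68 in CO2/O2 livers, a difference of -0.53 (SE 0.21). The other tested markers, Lct, which encodes lactase, and Alpi, the intestinal alkaline phosphatase, differed by 0.14 (SE 0.14) and -0.07 (SE 0.09). Cdh17 and Fabp2 are given by rat because of their values. The summed linear signal of the 4 tested markers was 6.38, 16.59 and 3.15 times the 75th percentile in isoflurane livers, and 5.28, 2.86 and 4.35 in CO2/O2 livers. In isoflurane replicate 2 most of this sum was Cdh17, at 3.87 log2 units beside 0.55 for Fabp2, -2.12 for Alpi and -1.76 for Lct. The part of intestinal cells in the Heph values was not tested.

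Cp encodes ceruloplasmin, the ferroxidase that the liver secretes and the relative of hephaestin. Its brightest probe, A_64_P036925, read 7.70, 7.74 and 7.70 log2 units in isoflurane livers, and 7.80, 7.71 and 7.81 in CO2/O2 livers. The 6 rats were nearly level and the groups overlapped, with a difference of -0.06 (SE 0.08). Its pooled SD was at the 1.7 percentile of the probes tested. The 4 Cp probes gave differences of -0.06 to 0.06, so neither direction held across them.

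**Figure D1:**
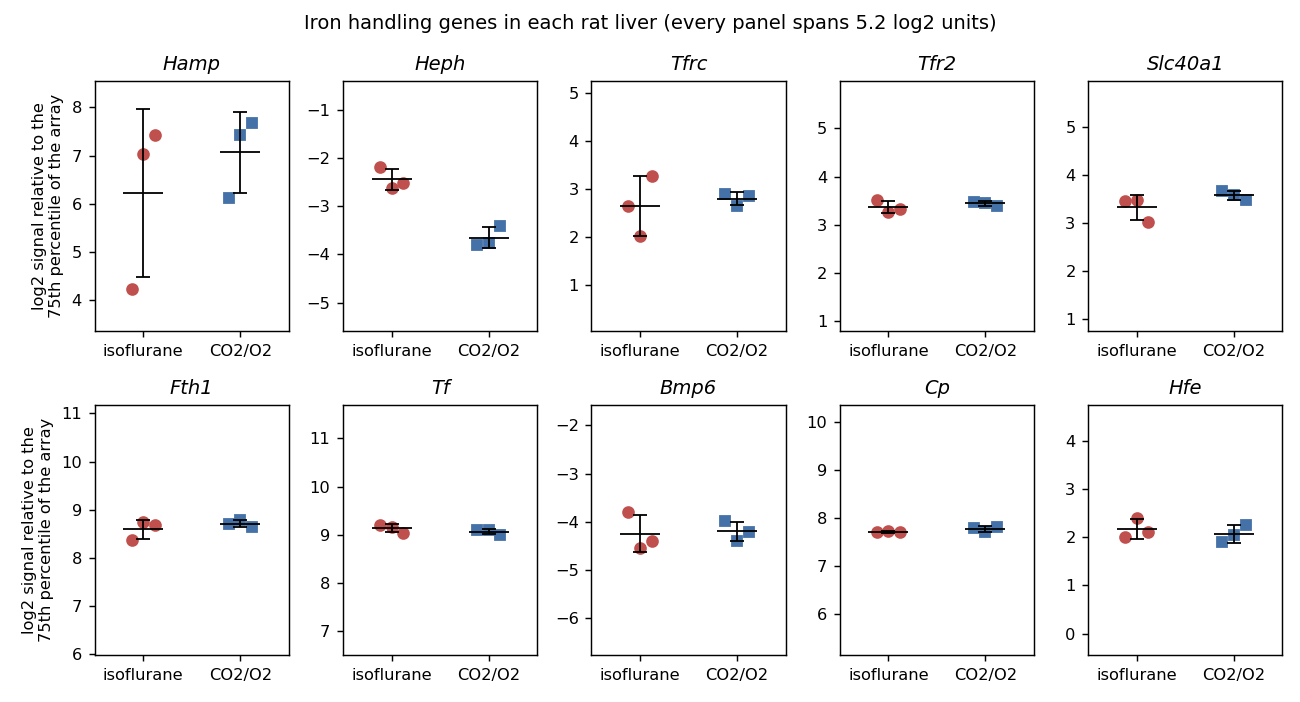
Log2 signal relative to the 75th percentile of the array (vertical axis) in each rat for the 10 genes, at 1 probe per gene, with isoflurane rats left and CO2/O2 rats right; points are rats, lines are group means, and every panel spans the same height. Hamp spans 3.44 log2 units because of the low isoflurane replicate 1, Heph separates the groups, and the rats of Tf, Tfr2 and Cp lie close together.

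Ferroportin, the exporter that hepcidin acts on, is encoded by Slc40a1. Its brightest probe, A_44_P819401, read 3.46, 3.48 and 3.03 log2 units in isoflurane livers, and 3.67, 3.58 and 3.48 in CO2/O2 livers. Isoflurane replicate 3 was the low rat, and the groups touched without overlapping, at a distance of 0.0001 log2 units. The means were 3.32 ± 0.25 log2 units in isoflurane livers and 3.58 ± 0.10 in CO2/O2 livers (SD, n = 3 each), a difference of -0.25 (SE 0.14).

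A second Slc40a1 probe, A_64_P101204, read 3.47, 3.54 and 2.81 log2 units in isoflurane livers, and 3.57, 3.67 and 3.52 in CO2/O2 livers. The third, A_43_P13162, read 0.04, 0.19 and -0.53 log2 units in isoflurane livers, and 0.29, 0.34 and 0.12 in CO2/O2 livers. At both the groups overlapped, isoflurane replicate 3 was again lowest, and the differences were -0.32 (SE 0.20) and -0.35 (SE 0.20). Without isoflurane replicate 3 the difference at the brightest probe was -0.11.

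Ferroportin is abundant in Kupffer cells, the macrophages of the liver that recycle iron from red cells, and their markers were lower in the same group. All 12 tested Kupffer cell markers of 13 were lower in isoflurane livers at their brightest probe, with a median of -0.33 log2 units. The other tested Csf1r probe was at 0.03. None passed the limma test (smallest adjusted p 0.536), 6 had an unadjusted p under 0.05 beside 7.58% of all genes, and 6 did not overlap between the groups beside 14.2% of all genes. The summed linear signal of the list was 203.08, 181.77 and 171.76 in isoflurane livers, and 256.9, 260.97 and 212.27 in CO2/O2 livers, in multiples of the 75th percentile.

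Among these markers Clec4f, a Kupffer cell lectin, read 6.23, 6.05 and 5.86 log2 units in isoflurane livers, and 6.64, 6.68 and 6.34 in CO2/O2 livers. Cd163, the macrophage scavenger receptor for hemoglobin, differed by -0.05 log2 units at its brightest probe and by -0.38 to -0.21 at the other 2. Erythroid markers were also mostly lower, 6 of 7 tested, with a median of -0.31 log2 units. Their summed signals were 593.57, 667.96 and 484.76 in isoflurane livers, against 852.1, 770.44 and 597.42 in CO2/O2 livers, so the rats overlapped. None of the 7 passed the limma test (smallest adjusted p 0.578). An unadjusted limma p under 0.05 was found in 2 beside 7.58% of all genes, and 2 did not overlap beside 14.2%. Sinusoidal endothelial markers had a median of -0.06. The part of these cells in the Slc40a1 values was not tested, and in whole liver fewer cells of a type and less RNA per cell cannot be told apart.

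**Figure D2:**
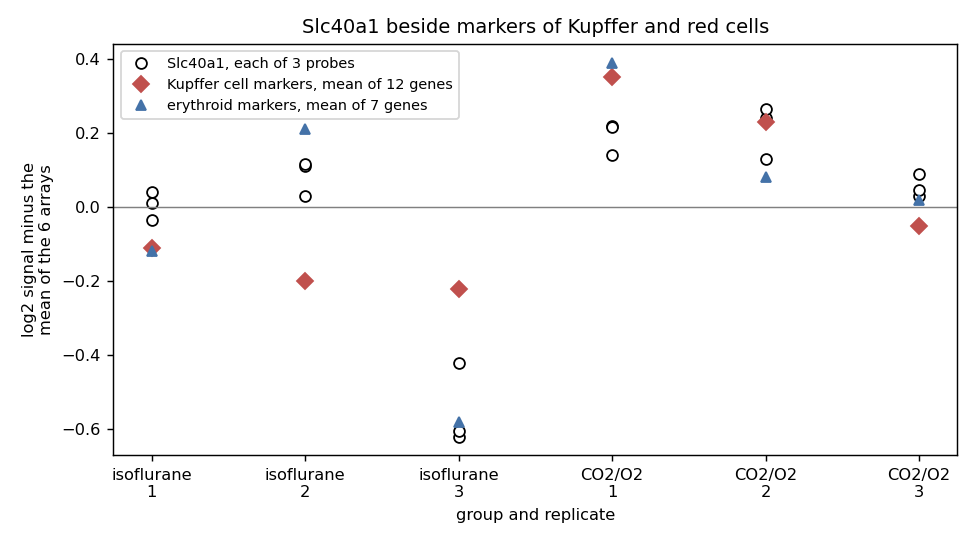
Log2 signal minus the mean of the 6 arrays (vertical axis) in each rat (horizontal axis) for the 3 Slc40a1 probes (open circles), the mean of 12 Kupffer cell markers (diamonds) and the mean of 7 erythroid markers (triangles). The Kupffer cell mean was -0.11, -0.20 and -0.22 in isoflurane rats and 0.35, 0.23 and -0.05 in CO2/O2 rats. The erythroid mean was -0.12, 0.21 and -0.58 in isoflurane rats and 0.39, 0.08 and 0.02 in CO2/O2 rats. The erythroid mean and all 3 Slc40a1 probes were lowest in isoflurane replicate 3.

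Transferrin, the plasma carrier of iron, and its receptors were measured by 6 probes. Tf read 9.20, 9.15 and 9.04 log2 units in isoflurane livers at A_44_P128147, and 9.09, 9.10 and 9.00 in CO2/O2 livers. The rats overlapped and the difference, 0.06 (SE 0.09), was within its error, as was that of the other Tf probe, 0.04. Tfrc, the receptor by which most cells take up transferrin, read 2.64, 2.02 and 3.27 log2 units in isoflurane livers at A_44_P214811, and 2.90, 2.65 and 2.85 in CO2/O2 livers.

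The isoflurane rats held both the lowest and the highest Tfrc value, with means of 2.64 ± 0.63 log2 units in isoflurane livers and 2.80 ± 0.13 in CO2/O2 livers (SD, n = 3 each). The same rats were lowest and highest at all 3 Tfrc probes, whose differences were -0.16 to -0.13. Without isoflurane replicate 2 the difference was 0.16, with the sign turned, and without isoflurane replicate 3 it was -0.47.

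Tfr2, the hepatocyte receptor that reports transferrin saturation to the hepcidin pathway, read 3.51, 3.26 and 3.33 log2 units in isoflurane livers, and 3.47, 3.46 and 3.39 in CO2/O2 livers. The isoflurane rats lay on both sides of the CO2/O2 rats, and the difference was -0.07 (SE 0.10). Hfe encodes the MHC class I-like protein mutated in hereditary haemochromatosis. It read 2.01, 2.41 and 2.11 log2 units in isoflurane livers at A_64_P144794, and 1.90, 2.04 and 2.26 in CO2/O2 livers. These groups overlapped, with a difference of 0.11 (SE 0.15), and 0.06 at the other Hfe probe.

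Bmp6 encodes the BMP ligand that rises with liver iron. Its probe was dim, well above background on 1 of 3 isoflurane arrays and 3 of 3 CO2/O2 arrays. It read -3.80, -4.54 and -4.40 log2 units in isoflurane livers, and -3.99, -4.40 and -4.22 in CO2/O2 livers. The groups overlapped, and the difference was -0.04 (SE 0.22).

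Fth1 encodes the heavy chain of ferritin, the protein shell that stores iron. At its brightest probe, A_43_P13974, it read 8.37, 8.74 and 8.67 log2 units in isoflurane livers, and 8.71, 8.79 and 8.63 in CO2/O2 livers. Isoflurane replicate 1, the rat with the lowest Hamp, was also lowest here, and the groups overlapped with a difference of -0.12 (SE 0.12), and -0.01 without that rat. The 4 Fth1 probes gave differences of -0.16 to 0.00. RefSeq lists 5 Fth1 pseudogenes in the rat, so part of this signal could come from copies and the Fth1 values are uncertain.

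Across the 10 genes, 3 were higher and 7 lower in isoflurane livers, with a median of -0.07 log2 units beside -0.01 over all 10609 tested genes. All 22 probes passed the filter on dim signal, and 2 of them were not well above background on all 6 arrays. The groups did not overlap in 2 of the 10 genes, Heph and Slc40a1, where 14.2% of all genes tested did not overlap. In the direction of higher isoflurane values they were 1 of 10, Heph, beside 6.01% of all genes, and nothing is read from these counts. No named gene passed the limma threshold at its brightest tested probe (0.0% of 10609 genes, with 804 at an unadjusted p under 0.05). Among all tested probes, named or not, 3 of 34637 did (0.00866%).

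All 6 arrays lay on 1 slide, with the 3 CO2/O2 arrays and isoflurane replicate 1 in its first row and the other 2 isoflurane arrays in the second. Within the first row, or with the row as a block, the difference rested on isoflurane replicate 1 against the 3 CO2/O2 rats. Heph then differed by 1.47 log2 units, Hamp by -2.83, Slc40a1 by -0.12, Fth1 by -0.34, Bmp6 by 0.40, Tfr2 by 0.07 and Hfe by -0.06. The sign of Bmp6, Tfr2 and Hfe was thus the opposite of that over all 6 arrays, and that of the others was the same.

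**Figure D3:**
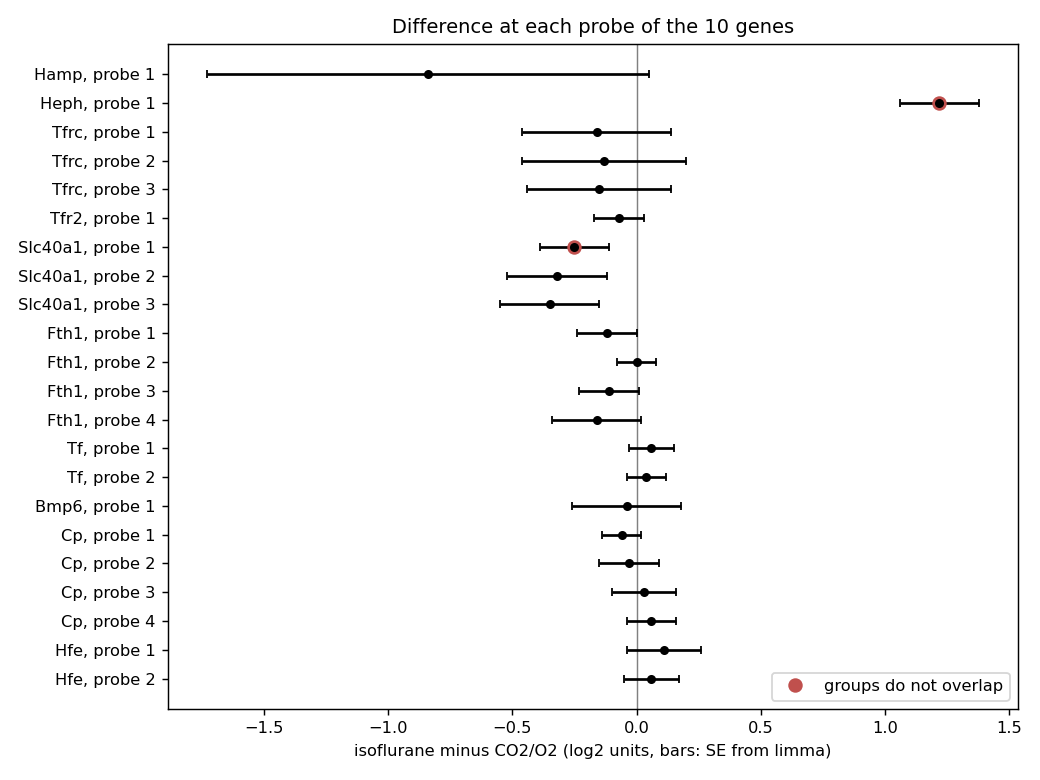
Isoflurane minus CO2/O2 in log2 units (horizontal axis) at each of the 22 probes of the 10 genes, with bars for the SE from limma; filled points mark probes whose groups do not overlap. The Heph probe stands at 1.22 and the 3 Slc40a1 probes at -0.35 to -0.25, while the Hamp bar, with an SE of 0.89, is the longest.

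The relation of Hamp to its regulators was read over the 6 rats, with both groups together and 1 array per rat. Pearson's r and Spearman's rho were computed for 24 genes, each with a two-sided exact permutation test over the 720 pairings, and Benjamini-Hochberg adjustment over the 24. None of the 24 passed an adjusted p of 0.05 by the exact permutation test for r (smallest 0.771) or rho, and 1 for r and 0 for rho had an unadjusted p under 0.05. Of the r values 11 were positive and 13 negative. Within the first slide row, over its 4 arrays only, the sign of r was the opposite in 5 of the 24.

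Among the upstream genes Bmp6 had the lowest p. Its r with Hamp was -0.84 by the exact permutation test (p 0.0333, adjusted p 0.771), and its rho was -0.43 (exact p 0.419, adjusted p 0.902). Without the 2 rats farthest from the Bmp6 median, replicate 1 of each group, r was 0.97, so its sign depended on those rats. Bmp6 in the rats left spanned only -4.54 to -4.22 log2 units, too narrow a range to decide whether a relation held. The r was -0.59 without isoflurane replicate 1, -0.93 for deviations from the group means and -0.92 within the first slide row. Of the isoflurane arrays only 1 of 3 had Bmp6 well above background, so these r include dim values.

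For Tf the r with Hamp was -0.74 (exact permutation p 0.0778, adjusted p 0.771) and rho was -0.71 (exact p 0.136, adjusted p 0.902). Without the 2 rats farthest from the Tf median r was -0.14, so its size depended on those rats. For Tfr2 r was -0.61 (exact permutation p 0.197, adjusted p 0.771), rho was -0.49 (exact p 0.356), and r was -0.84 without its 2 farthest rats. Over the 6 rats Tf spanned only 0.19 log2 units and Tfr2 0.25, where the median range of all tested probes was 0.434. These r thus rest on small differences, too narrow to decide whether a relation held.

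Hfe had a positive r in each setting shown, and it was not alone in keeping its sign. Over all 6 rats, without the 2 farthest rats and without isoflurane replicate 1, Smad4 and Socs3 were also positive. Tf, Tfr2, Tmprss6 and Cebpa were negative in each of these. The r of Hfe was 0.48 (exact permutation p 0.354, adjusted p 0.771), its rho 0.54 (exact p 0.297), and r was 0.43 without its 2 farthest rats and 0.50 without isoflurane replicate 1. Hjv, the BMP co-receptor hemojuvelin, and Tmprss6, the protease that cleaves it, had r of -0.33 and -0.43. Bmp2, the other endothelial ligand, had r of -0.66. Without isoflurane replicate 1, Hjv was at 0.26 and Bmp2 at 0.32, with the sign turned, and Tmprss6 at -0.55.

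Of the signal carriers, Smad1, Smad5 and Smad4 had r of 0.33, 0.28 and 0.56 with Hamp, and Stat3 had 0.46. Il6r, a subunit of the interleukin-6 receptor, had 0.01, and Cebpa, a liver transcription factor, had -0.53. Smad5, Stat3 and Il6r turned to -0.12, -0.18 and -0.15 without their 2 farthest rats. The target genes that share these pathways lay on both sides of 0, at -0.06 for Id1, -0.40 for Smad6, -0.15 for Smad7, -0.03 for Atoh8, 0.39 for Socs3 and 0.07 for Fgb. The members outside the control of Hamp had r of 0.80 for Fth1, 0.27 for Cp, -0.22 for Slc40a1 and -0.44 for Heph. Fth1 turned to -0.68 without the 2 rats farthest from its median and to -0.24 without isoflurane replicate 1. Across the 24 genes the sign of r changed in 8 without isoflurane replicate 1 and in 8 without each gene's 2 farthest rats.

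**Figure D4:**
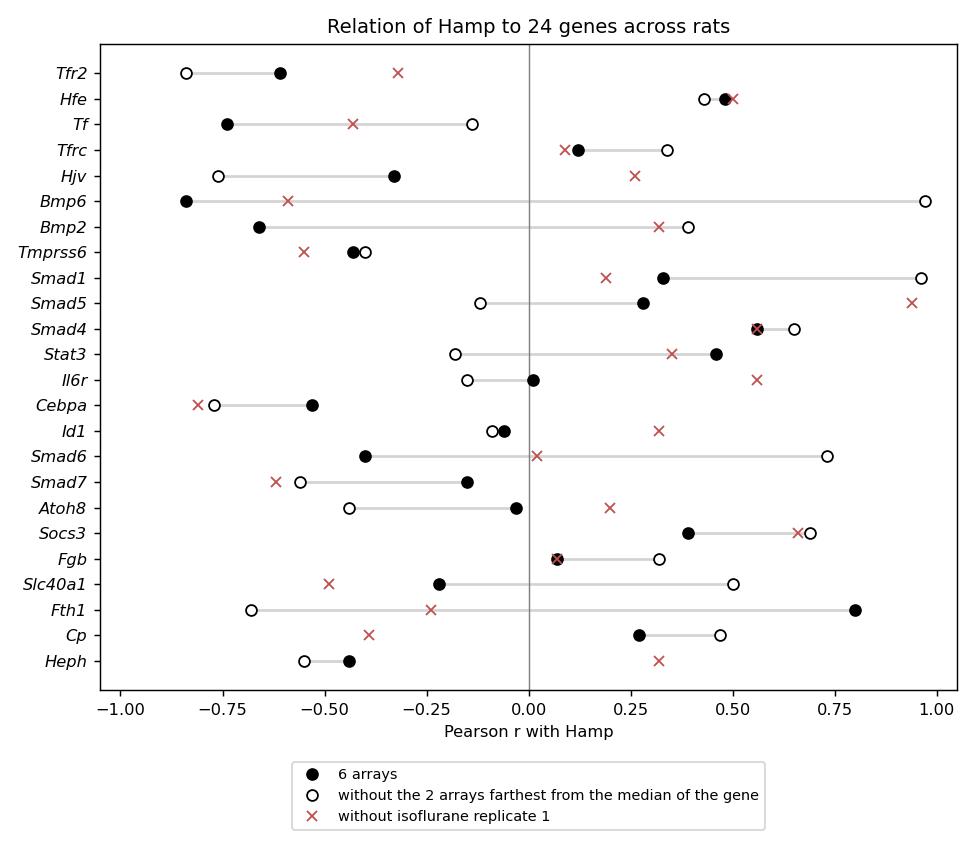
Pearson r with Hamp (horizontal axis) for 24 genes across rats: filled circles for all 6 arrays, open circles joined to them without the 2 arrays farthest from that gene's median, and crosses without isoflurane replicate 1. For Bmp6 the filled circle is at -0.84 and the open circle at 0.97, whereas the 3 marks for Hfe lie between 0.43 and 0.50. The 3 marks keep their sign for other genes too, as for Smad4 at 0.56 to 0.65 and Cebpa at -0.81 to -0.53.

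The genes whose pattern over the 6 rats was most like that of Hamp were sought among 3592 genes well above background on all arrays with a range of at least 0.5 log2 units. Ttc23 had the highest r, 0.971, followed by Gpd2, the mitochondrial glycerol-3-phosphate dehydrogenase, at 0.958 and Plekha1 at 0.949. Gpd2 read 0.27, 0.77 and 1.00 log2 units in isoflurane livers, and 0.66, 1.14 and 1.02 in CO2/O2 livers, so that replicate 1 of each group was its low rat as for Hamp. In all 23 of the 3592 genes had an r of at least 0.9 with Hamp.

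For Heph the most alike were Tvp23b at 0.972, Upb1, the beta-ureidopropionase of pyrimidine breakdown, at 0.961 and Adat2, a subunit of a tRNA adenosine deaminase, at 0.960. Upb1 read 6.53, 5.72 and 6.31 log2 units in isoflurane livers, and 5.09, 5.05 and 5.32 in CO2/O2 livers. Adat2 read -0.98, -0.83 and -1.03 log2 units in isoflurane livers, and -2.13, -2.02 and -1.75 in CO2/O2 livers. In each of the 3 the isoflurane rats lay above the CO2/O2 rats, which the choice by r with Heph made likely beforehand. Of the 3592 genes searched, 30 had an r of at least 0.9 with Heph. The r values of the named genes were chosen as the highest over 6 arrays and are a description. How many unrelated genes would reach 0.9 over 6 arrays was not computed, so nothing is read from the counts for Hamp and Heph.

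The wider machinery of iron and of hepcidin control held no gene that passed the limma test between the groups. Of 76 genes in 7 lists 69 were matched and 67 tested. The test called 0 of them (smallest adjusted p 0.55), and 5 had an unadjusted p under 0.05, which is 7.5% beside 7.58% of all genes. The groups did not overlap in 6, or 9.0%, beside 14.2% of all genes. There were 32 genes higher and 35 lower in isoflurane livers, with a median of -0.013 log2 units.

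In iron uptake, export and reduction 12 of 13 genes were tested, 6 higher and 6 lower with none past the test, at a median of 0.00 log2 units. Steap1, of the STEAP family of metalloreductases, averaged -2.64 ± 0.23 log2 units in isoflurane livers and -3.05 ± 0.15 in CO2/O2 livers (SD, n = 3 each; limma adjusted p 0.616). Slc25a37, mitoferrin, the mitochondrial iron importer, differed by 0.28 (SE 0.15). Slc39a14, an importer of iron that is not bound to transferrin, had 4 probes that disagreed, as seen after the values were known. One of them was at -0.51 and the brightest at 0.00. It was not alone in this among the wider lists. Bmpr1a was at 0.03 at its brightest probe and -0.57 at the other. Il6st was at -0.05 at its brightest probe and at 0.15 to 0.48 at the others.

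In iron storage, chaperones and sensing 7 of 11 genes were tested, 5 higher and 2 lower with none past the test, at a median of 0.05. Glrx5, the mitochondrial glutaredoxin of iron-sulfur cluster assembly, read 4.54, 4.49 and 4.35 log2 units in isoflurane livers, and 4.90, 4.83 and 4.83 in CO2/O2 livers. Its groups did not overlap, with a difference of -0.39 (SE 0.09; limma adjusted p 0.55). Iscu, the scaffold on which the clusters are built, differed by 0.11 (SE 0.09).

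In the BMP and SMAD control of hepcidin 14 of 17 genes were tested, 6 higher and 8 lower with none past the test, at a median of -0.03. Gdf15, a stress-induced cytokine of the TGF-beta family, read -2.10, -1.46 and -0.72 log2 units in isoflurane livers, and -2.59, -2.01 and -2.69 in CO2/O2 livers. The groups overlapped and the difference was 1.00 (SE 0.37; limma adjusted p 0.64), with 1.03 at its other probe. Furin, the protease that matures hepcidin and BMPs, differed by 0.17 (SE 0.08).

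Of the 6 BMP and SMAD target genes, 2 were higher and 4 lower with none past the test, at a median of -0.14. Id2, an inhibitor of helix-loop-helix factors, read 2.43, 2.78 and 2.15 log2 units in isoflurane livers, and 3.37, 3.16 and 3.08 in CO2/O2 livers. The rats did not overlap, and the difference was -0.75 (SE 0.18; limma adjusted p 0.55) with -0.70 at its other probe. Smad7, the inhibitory SMAD that damps hepcidin transcription, read 1.73, 1.56 and 1.14 log2 units in isoflurane livers, and 2.94, 1.64 and 2.34 in CO2/O2 livers. Its groups overlapped, with a difference of -0.83 (SE 0.34; limma adjusted p 0.655).

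In the IL-6 and STAT3 control of hepcidin 9 of 9 genes were tested, 3 higher and 6 lower with none past the test, at a median of -0.08. Cebpb, a transcription factor of the acute phase, averaged 4.57 ± 0.39 log2 units in isoflurane livers and 5.00 ± 0.10 in CO2/O2 livers (SD, n = 3 each; limma adjusted p 0.687). Jak2, the kinase that relays cytokine signals to STAT3, differed by -0.18 (SE 0.09).

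In heme and hemoglobin scavenging 8 of 8 genes were tested, 4 higher and 4 lower with none past the test, at a median of -0.01. Hmox2, the constitutive heme oxygenase, differed by 0.16 (SE 0.08) at its brightest probe and by -0.01 at the other. Blvrb, biliverdin reductase B, differed by 0.15 (SE 0.12).

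Of the acute phase genes 11 of 12 were tested, 6 higher and 5 lower with none past the test, at a median of 0.00. Lcn2, the siderophore-binding lipocalin, averaged -1.62 ± 0.45 log2 units in isoflurane livers and -0.88 ± 0.52 in CO2/O2 livers (SD, n = 3 each; limma adjusted p 0.671). Serpina3n, an acute phase serpin, differed by -0.13 (SE 0.10). A2m, the alpha-2-macroglobulin that is induced in the rat acute phase, was picked out with its values known. It read 1.08, 2.13 and 3.54 log2 units in isoflurane livers, and 0.13, 1.97 and 2.40 in CO2/O2 livers, with replicate 1 of each group low as for Hamp. Lbp, of the same list, was also lowest in replicate 1 of each group. It read 2.09, 2.71 and 2.78 log2 units in isoflurane livers, and 2.19, 2.47 and 2.36 in CO2/O2 livers. Crp, C-reactive protein, picked out in the same way, was highest in replicate 1 of each group, at 7.29, 7.13 and 6.87 log2 units in isoflurane livers, and 7.28, 6.99 and 7.01 in CO2/O2 livers. Lcn2 was likewise highest in both, at -1.35, -2.14 and -1.36 log2 units in isoflurane livers, and -0.52, -0.64 and -1.47 in CO2/O2 livers. In isoflurane livers its replicates 1 and 3 were nearly level.

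**Figure D5:**
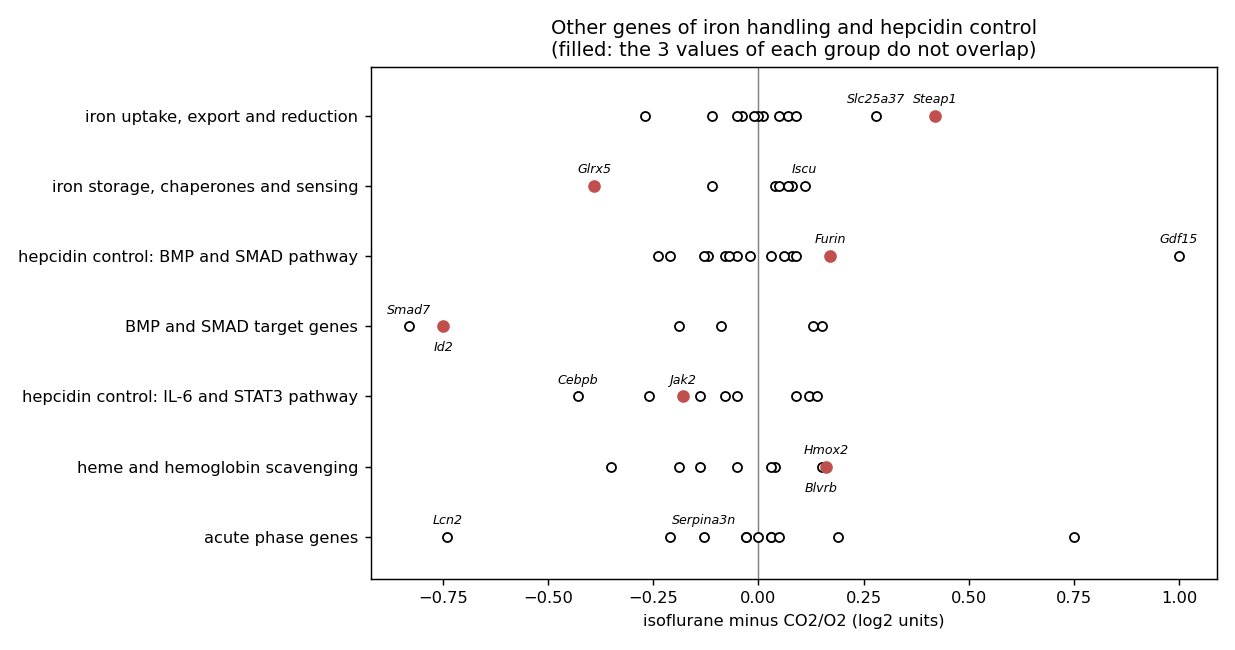
Isoflurane minus CO2/O2 in log2 units (horizontal axis) for each of the 67 tested genes in 7 lists (rows); filled points are genes whose groups do not overlap, and the labelled genes are those chosen by the naming rule. The points of each list lie on both sides of 0, with Gdf15 at 1.00, Id2 at -0.75 and Smad7 at -0.83 among the farthest out.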

How the data were processed

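Per the labels' protocols, 0.2 ug of liver RNA was amplified and labelled with Cy3, and arrays were processed with Agilent Feature Extraction 10.7, per the submitters' processing notes. The deposited spot values are intensity values on a linear scale, corrected for background per the file headers and not scaled between arrays. The authors' deposited value table holds a linear ratio per probe: the same intensity divided by 1 number per array close to its 75th percentile, with medians of 0.0917, 0.0901 and 0.0905 for isoflurane replicates 1 to 3 and 0.0864, 0.0882 and 0.0868 for CO2/O2 replicates 1 to 3.

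From these, log2 intensity minus each array's 75th percentile over non-control probes was computed, leaving out spots marked as outliers. The test took probes that reached the scanner's mark of well above background on 3 of 3 arrays in 1 group or both. Differences and SE are from lmFit and eBayes of limma 3.58.1 (R 4.3.3), tested on simulated data, with Benjamini-Hochberg adjustment over all probes tested and a threshold of 0.05. Probes were named by accession through RefSeq (GRCr8): 27460 of 61657 matched 1 gene. The arrays' headers name another build, so GRCr8 positions are given only for the RefSeq promoter. A gene was its brightest tested probe, unless the mean of its probes is stated.

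The members and lists were chosen with earlier results of these data known. Named genes were all members, and of each wider list the genes past the threshold, then those with an unadjusted p under 0.05, then those of largest moderated t, with 2 to 5 per list. For Hamp and Heph the 3 genes of highest r were added.

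Alternatives were normexp (offset 50, on the median signal), the authors' value table, median centring, quantile normalization, other filters on dim and outlier spots, trended and robust eBayes, a block for the replicate number or for the slide row, averaging over the probes of a gene, and leaving out each array. Slide row 1 alone, for differences and relations, and the relations without isoflurane replicate 1 were added after seeing the data. All arrays shared 1 slide and scan time, so those blocks were not run.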

Additional observations from a re-analysis of the deposited data

How the results depend on the processing

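With 3 rats per group on 6 arrays, precision was limited by the number of arrays. The 3 probes past the limma threshold became 5 with normexp, 1 with no filter on dim probes and 5 with eBayes with trend and robust, and ranged between 1 and 13 on leaving out arrays. The 13 came without CO2/O2 replicate 3, and 1 came both without isoflurane replicate 3 and without CO2/O2 replicate 1. With the replicate number as a block the count was 0. The numbers were not taken to pair the rats, since deviations of same-numbered rats correlated at 0.114, 0.021 and 0.060. The count of wider iron genes past the threshold was 0 under every alternative run, with 0 to 0 on leaving out arrays, and the replicate block also gave 0. With the slide row as a block, or row 1 only, Blvrb was -0.05 and Slc25a37 -0.03, opposite to their sign over all arrays. Without isoflurane replicate 1, r with Hamp was 0.32 for Heph, -0.24 for Fth1 and -0.39 for Cp. Without each gene's 2 farthest arrays it was 0.97 for Bmp6, 0.50 for Slc40a1 and -0.68 for Fth1, with the mean of its probes it was -0.18 for Cp, and in slide row 1 only it was 0.23 for Slc40a1. Of the 24 relations 0 passed the adjusted threshold under any setting. Leaving out arrays gave -0.26 to 0.10 for Bmp6 and -0.01 to 0.21 for Hfe, and no sign changed for Heph, Slc40a1, Fth1, Tf, Tfr2 or Cp. No scaling alternative moved the median difference of all probes beyond -0.061. The causes of these shifts were not tested.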
